A study of Mus musculus with 6 samples.

Results

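The transcripts described here are 9 genes that carry androgen or glucocorticoid response elements or respond to these hormones in other tissues: *Fkbp5*, *Tsc22d3*, *Zbtb16*, *Sgk1*, *Acsl3*, *Abcc4*, *Ndrg1*, *Sord* and *Rhou*. They were chosen by name, from knowledge of other tissues and with earlier results of these data known, and looked up in the expression table by gene name. Of the 9 genes, 8 were found among the 16300 genes of the table, and *Zbtb16* was not analysed here. The table comes from RNA-seq of primary granulosa cells (GCs), the follicle cells that surround and nourish the oocyte, from wild type C57BL/6J mice aged 8 to 9 weeks. GCs taken on the day of estrus were pooled from several mice per library, cultured in medium with serum, serum starved and then given either medium alone (control, 3 libraries) or dihydrotestosterone (DHT, 25 nM) for 24 h (DHT, 3 libraries). DHT is a potent androgen that aromatase does not turn into estrogen. All 6 libraries share the genotype, the culture and the starvation, and the GEO record gives an extraction from whole ovary for every library although the cell type is given as granulosa cells. The libraries are separate pools of cells, so the p-values measure the spread between pools and not between single mice.

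Steroid hormones such as androgens and glucocorticoids act through nuclear receptors, which wait in a complex with the chaperone HSP90 until they bind hormone and then attach to response elements in DNA. These elements are inverted repeats of a 6-letter sequence separated by a short spacer, and much the same sequence serves androgens, glucocorticoids, mineralocorticoids and progesterone. The 9 genes are mostly known as androgen-induced genes of the prostate or as glucocorticoid-induced genes of many tissues, and they act on different processes: receptor feedback, kinase signalling, fatty acid activation, membrane export, sugar alcohol metabolism and cell shape. In the follicle, androgens are known to act on GCs and to support the growth of small follicles.

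The clearest response element sequence among these genes stood before a start of *Sgk1*, and it is shown here because it carries every fixed letter of the motif. The 250 bases before each annotated start were searched, as given by the RefSeq promoter table for build GRCm38.p6, which held 15 promoters for 7 of the 9 genes. *Ndrg1* and *Zbtb16* had no entry. The motif was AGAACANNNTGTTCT, which reads the same on both strands, and its 6-letter arm TGTTCT was also searched alone on both strands (AGAACA on the other strand), so that each full motif contains 2 arms. In the *Sgk1* window below, chr10:21993640-21993889 on the plus strand, the capitals mark the arms of the exact motif, and a further single arm at the left end is in lower case.
*Sgk1* promoter: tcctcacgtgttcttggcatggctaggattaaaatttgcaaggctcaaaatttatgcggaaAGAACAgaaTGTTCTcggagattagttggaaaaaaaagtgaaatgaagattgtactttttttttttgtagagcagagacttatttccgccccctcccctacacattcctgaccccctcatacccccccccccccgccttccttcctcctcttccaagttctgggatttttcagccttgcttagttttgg
The motif lay at chr10:21993701-21993715, at -189 to -175 counted from the start at position 21993890 (the base before a start is -1). It overlapped no annotated exon, and it lay within the span of 5 annotated *Sgk1* transcripts that begin further upstream, so that for these it is intronic. The exact motif was found in 3 of all 32851 promoters of this length and in 1 of the 14478 promoters of genes tested here, the one of *Sgk1*. Another *Sgk1* window, before the start at position 21986104, held a match with 2 mismatches at chr10:21985921-21985935, shown with its mismatched letters in lower case within the arms.
*Sgk1* second match: AGAAgAttcTGaTCT
Matches with at most 2 mismatches were present in 1.56% of all promoters.

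The arm was present in 5 of the 15 promoters of these genes (33.3%), against 16.1% of all promoters and 10.9% of the promoters of tested genes. These shares count promoters and not genes. *Sgk1* holds more of the 15 than any other gene and most of those with an arm, including that of the exact motif. By gene, only *Abcc4*, *Sgk1* and *Tsc22d3* had an arm, of the 7 genes with a promoter. Single arms, in capitals with their neighbouring bases on the strand of the gene, lay before a start of *Abcc4*, at 2 further starts of *Sgk1* and before a start of *Tsc22d3*.
*Abcc4*, first letter at -123 from the start at position 118676931: agctgactctgaTGTTCTgggtacagtcaa
*Sgk1*, first letter at -195 from the start at position 21882184: aagggaatccgtTGTTCTgtgttttctgtg
*Sgk1*, first letter at -13 from the start at position 21992223: aaagtgggactcAGAACAgaaaggc
*Tsc22d3*, first letter at -185 from the start at position 140600522: ccgcattcgacaTGTTCTaagttctgagac
These letters were not in the windows searched for *Acsl3*, *Fkbp5*, *Rhou* and *Sord*, which says nothing of elements elsewhere in these genes. Across the tested genes the arm did not go with a larger share of changed transcripts: 11.4% of 1471 genes with it and 12.1% of 9874 genes without it changed. The motif with at most 1 mismatch was found for 13 tested genes, of which 3 changed, and *Sgk1* was among them.

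**Figure D1:**
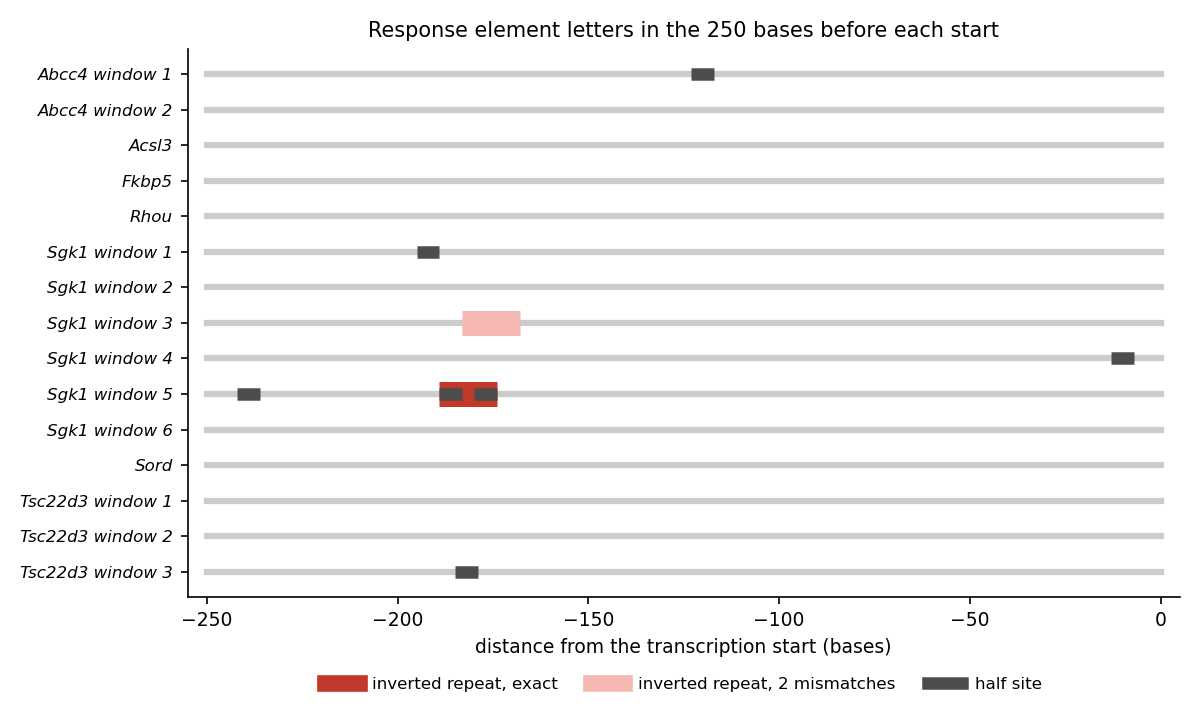
Positions of the response element letters in the 250 bases before each start (x axis, bases from the start; 1 line per promoter window, numbered along the chromosome). Grey lines are the windows searched, dark bars the 6-letter arm, the red bar the exact motif and the pink bar the match with 2 mismatches; only *Sgk1* has full-length matches, 1 of them exact, and 5 of 15 windows hold at least 1 arm.

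The libraries were deep and alike. They held 36111177 to 41928585 reads assigned to genes, recovered from the steps of the values, and pairs of libraries correlated across genes with a Pearson r of 0.984 to 0.994. Among markers of GCs, 13 of 14 were in the table, with *Serpine2* the most abundant, and their summed normalized counts were 268676 to 301663 in control and 284564 to 302681 in DHT libraries; 2 of these 13 markers were higher (*Serpine2* and *Hsd17b1*) and 3 lower with DHT, against 11.2% of all tested genes that changed. Those that fell, named like *Hsd17b1* after their values were seen, were *Kitl* (log2 fold change -0.85, adjusted p = 0.00119, limma), *Inha* (-0.61, 0.00162) and *Foxl2* (-0.15, 0.049). *Foxl2* did not pass in a fit with the replicate number as a block (adjusted p = 0.133, limma). Sums for endothelium (5 of 8 markers in the table) were 236 to 297 in control and 239 to 326 in DHT libraries, for leukocytes (5 of 9) 486 to 568 and 374 to 625 (1 of these, *Csf1r*, named after its values were seen, was lower with DHT: log2 fold change -0.64, adjusted p = 0.027, limma), for oocytes (8 of 9) 375 to 895 and 109 to 705, and for ovarian surface epithelium (8 of 8) 1922 to 2440.3 and 1450.2 to 2346. The sum for theca and stroma (8 of 10, without the theca markers *Cyp17a1* and *Insl3*, which were not analysed here) was higher with DHT and did not overlap, 6312 to 8831 against 9905 to 11759. This rested on *Acta2*, the smooth muscle actin gene, with 5399 ± 1068 (SD, n = 3) in control and 9012 ± 762 in DHT libraries; the other 7 markers of that list, a selection made after its values were seen, summed to 2018 to 2406 and 1688 to 2413. The part of these cells in the results below was not tested. In bulk RNA, fewer cells of a type and less RNA per cell cannot be told apart.

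The estimated changes of the measured target genes with DHT were less than 2-fold and not in a common direction. Of the 8 genes, 4 rose (*Acsl3*, *Sgk1*, *Ndrg1* and *Fkbp5*), 2 fell (*Abcc4* and *Sord*) and 2 did not pass the test (*Tsc22d3* and *Rhou*), by limma on log2(normalized count + 1) with Benjamini-Hochberg adjusted p of at most 0.05 over 16292 genes. The fit let the variance follow the expression level, and without this intensity trend only *Acsl3*, *Sgk1* and *Ndrg1*, 3 of the 8, changed. Over all tested genes 11.2% changed (6.52% higher and 4.66% lower), and the share was 14.7% (8.64% higher and 6.05% lower) among the 8945 genes whose mean reached 500 normalized counts, a level that all 8 exceeded. None of the 8 genes passed the study's further limit of an absolute log2 fold change above 1, which 1.31% of tested genes did (0.908% higher and 0.399% lower). Their median log2 fold change was 0.24 and their median absolute log2 fold change 0.34, beside -0.01 and 0.11 over all tested genes. The control and DHT libraries did not overlap for 7 of the 8 genes (5 higher and 2 lower with DHT), against 30.6% of tested genes (15.9% higher and 14.7% lower).

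**Figure D2:**
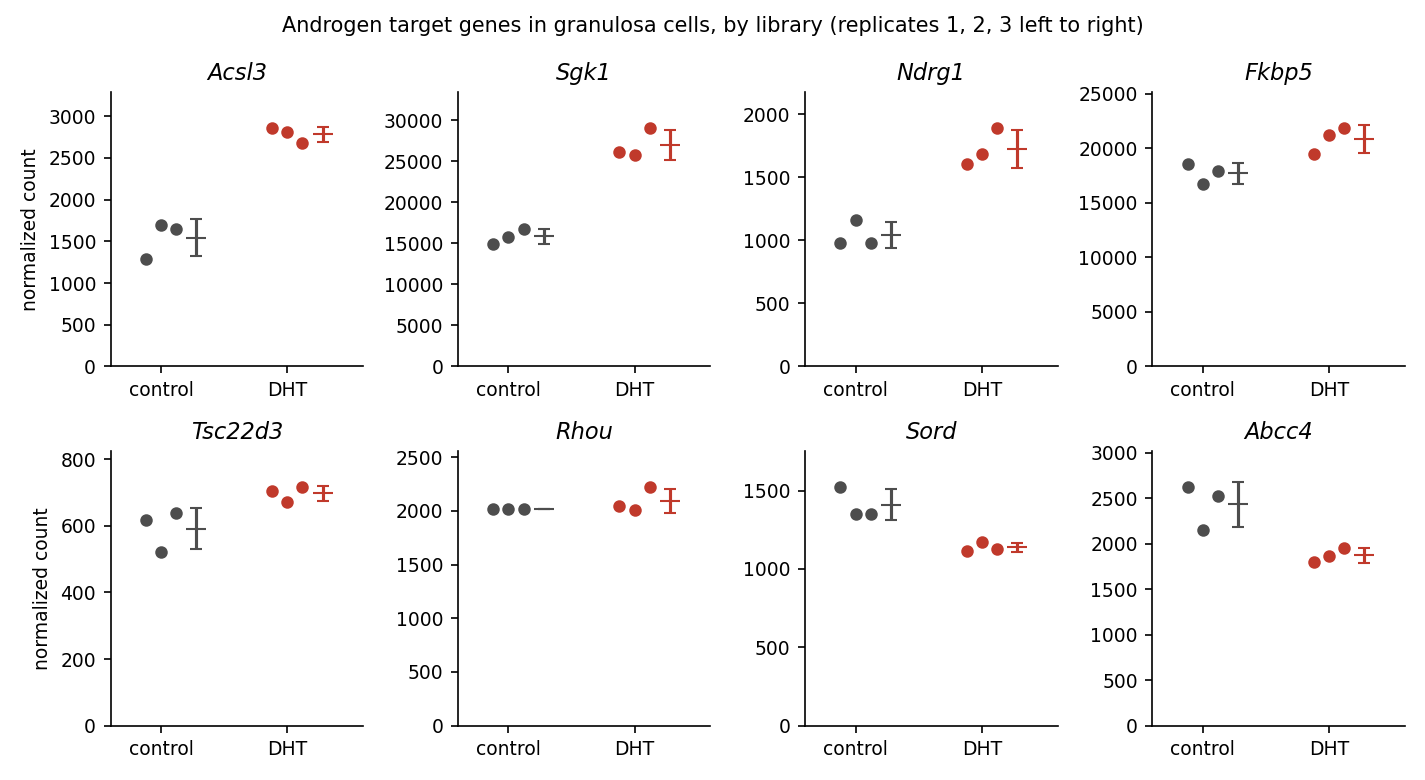
Normalized counts (y axis, from 0) of the 8 genes in each library, 3 control and 3 DHT; points are libraries and the bar beside them is the mean with its SD. The groups are apart for every gene except *Rhou*, and the DHT libraries lie below the controls for *Sord* and *Abcc4*.

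*Acsl3* (ENSMUSG00000032883, chr1:78657825-78707743, plus strand) showed the largest change of the 8. It encodes an acyl-CoA synthetase that activates long-chain fatty acids at the endoplasmic reticulum and on lipid droplets, and it is a well-known androgen-induced gene of prostate cancer cells. Its normalized counts were 1292, 1696 and 1642 in the control libraries and 2862, 2809 and 2683 in the DHT libraries. The DHT libraries lay close together and all above the controls, among which replicate 1 was the lowest. The mean rose from 1544 ± 219 to 2785 ± 92.3 (SD, n = 3 each), a log2 fold change of 0.86 (SE 0.09, 95% interval 0.65 to 1.07, adjusted p = 0.000575, limma). Of its 4357 exonic bases, 5.60% are shared with *Utp14b* on the same strand, from which reads cannot be assigned to either gene.

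*Sgk1* (ENSMUSG00000019970, chr10:21882184-21999903, plus strand), the gene with the exact element, encodes serum and glucocorticoid-induced kinase, which raises ion transport and cell survival and phosphorylates FOXO factors. The control libraries held 14950.4, 15784 and 16798 normalized counts of it, the DHT libraries 26137, 25785 and 29069.8. Every DHT library was at least 1.53 times as high as every control library. The mean rose from 15844 ± 925 to 26997 ± 1803, a log2 fold change of 0.77 (SE 0.06, 95% interval 0.64 to 0.90, adjusted p = 0.000118, limma). Its gain in normalized counts was larger than that of any of the other 7 genes.

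*Ndrg1* (ENSMUSG00000005125, chr15:66929318-66969640, minus strand) encodes a protein of stress and differentiation that is induced by androgens in prostate cells and by hypoxia in many cells. Its normalized counts were 978, 1162 and 982 in control and 1604, 1681 and 1892 in DHT libraries, again without overlap. The mean rose from 1040.4 ± 105 to 1726 ± 149, a log2 fold change of 0.73 (SE 0.08, 95% interval 0.54 to 0.92, adjusted p = 0.000749, limma). Exons of 2 noncoding genes on the other strand, *Gm17035* and *Gm2895*, cover 6.35% and 2.08% of its exonic bases, and since the counting is not stated to use strand, reads from these bases cannot be told apart.

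*Fkbp5* (ENSMUSG00000024222, chr17:28399094-28517527, minus strand) rose only slightly. It encodes the immunophilin FKBP51, a partner of HSP90 in steroid receptor complexes, and is a standard reporter gene of both androgen and glucocorticoid action. Its normalized counts were 18555, 16667 and 17892 in control and 19447, 21194 and 21860.0 in DHT libraries. The groups were apart, but the lowest DHT library was only 1.05 times the highest control library. The mean went from 17705 ± 958 to 20833 ± 1246, a log2 fold change of 0.23 (SE 0.06, 95% interval 0.11 to 0.36, adjusted p = 0.0283, limma). The call did not hold without the intensity trend (adjusted p = 0.124), without control replicate 2 (0.0851), without DHT replicate 2 (0.113) or without DHT replicate 3 (0.115).

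*Tsc22d3* (ENSMUSG00000031431, chrX:140539528-140600659, minus strand) encodes GILZ, the leucine zipper protein through which glucocorticoids dampen inflammation. Normalized counts of 616, 520.4 and 637 in control libraries stood against 704, 672 and 716 in DHT libraries, with no overlap between the groups. The log2 fold change of 0.24 was close to that of *Fkbp5*, with a wider error (SE 0.08, 95% interval 0.06 to 0.43), and the adjusted p of 0.0999 (limma) missed the threshold. With each library left out in turn the log2 fold change ranged from 0.15 without control replicate 2 (adjusted p = 0.221) to 0.30 without control replicate 3, the only one of these 6 fits in which it passed (adjusted p = 0.0482).

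*Rhou* (ENSMUSG00000039960, chr8:123653929-123663884, plus strand) encodes an atypical small GTPase of the cytoskeleton. In normalized counts it was at 2014, 2019 and 2016 in control and 2049, 2007 and 2222 in DHT libraries. The lowest DHT library lay below every control library, and DHT replicate 3 stood above the others. The log2 fold change was 0.05 (SE 0.05, 95% interval -0.05 to 0.16, adjusted p = 0.543, limma), so that a change beyond this interval in either direction is not supported by these libraries.

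*Abcc4* and *Sord*, both known as androgen-induced genes of the prostate, were lower with DHT. *Abcc4* (ENSMUSG00000032849, chr14:118482692-118706219, minus strand) encodes MRP4, a membrane pump that exports cyclic nucleotides, prostaglandins and steroid sulphates. Its normalized counts were 2623, 2151 and 2523 in control and 1798, 1859.9 and 1955 in DHT libraries. All DHT libraries lay below the lowest control library, replicate 2. The mean fell from 2433 ± 249 to 1871 ± 79.0, a log2 fold change of -0.37 (SE 0.07, 95% interval -0.54 to -0.21, adjusted p = 0.0113, limma). Without the intensity trend the call was lost (adjusted p = 0.0815).

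*Sord* (ENSMUSG00000027227, chr2:122234749-122265340, plus strand) encodes sorbitol dehydrogenase, the enzyme that turns sorbitol into fructose. Libraries held 1523, 1351 and 1352 normalized counts of it in control and 1117, 1171 and 1129 in DHT libraries, so that control replicate 1 was the highest and the groups were apart. The mean fell from 1409 ± 98.9 to 1139 ± 28.3, a log2 fold change of -0.30 (SE 0.06, 95% interval -0.44 to -0.17, adjusted p = 0.0104, limma). This call too was lost without the intensity trend (adjusted p = 0.0621).

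**Figure D3:**
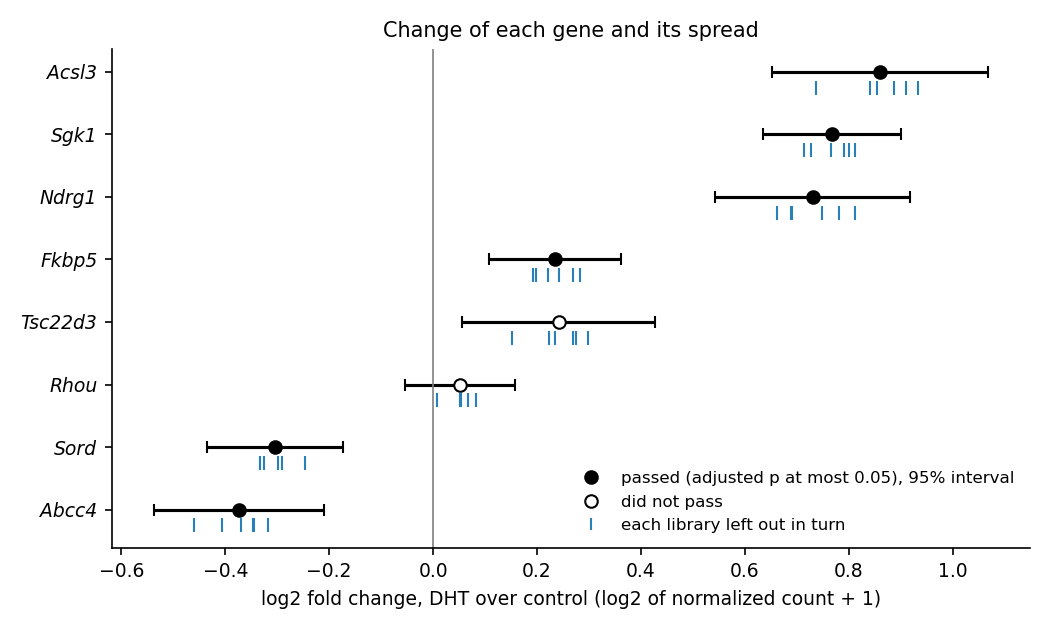
Log2 fold change of each gene (x axis, DHT over control, log2 of normalized count + 1) with its 95% interval; filled points passed an adjusted p of 0.05, open points did not, and blue ticks are the values with each of the 6 libraries left out in turn. *Acsl3*, *Sgk1* and *Ndrg1* lie between 0.73 and 0.86, well apart from the interval of *Fkbp5*, and every tick is on the side of its point.

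Levels between genes were compared as normalized counts per kilobase of exonic length. In the control libraries *Sgk1* was the highest (mean 3232 per kilobase), followed by *Fkbp5* (1869.9), *Sord* (599), *Rhou* (529.7), *Abcc4* (381), *Acsl3* (354), *Ndrg1* (158) and *Tsc22d3* (136). *Sgk1* and *Fkbp5* stood above 97.2% and 94.5% of the 16265 genes with a length. Neighbours in this order did not overlap between libraries, except *Abcc4* and *Acsl3* (337 to 411 and 297 to 389 per kilobase). With DHT the order became *Sgk1* (5506 per kilobase), *Fkbp5* (2200.4), *Acsl3* (639), *Rhou* (549.9), *Sord* (484), *Abcc4* (293), *Ndrg1* (262) and *Tsc22d3* (161), in which *Abcc4* and *Ndrg1* overlapped (281 to 306 and 243 to 287 per kilobase). *Acsl3* thus moved from the 5242nd to the 3164th rank of all genes and from below *Sord* and *Rhou* to above them.

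**Figure D4:**
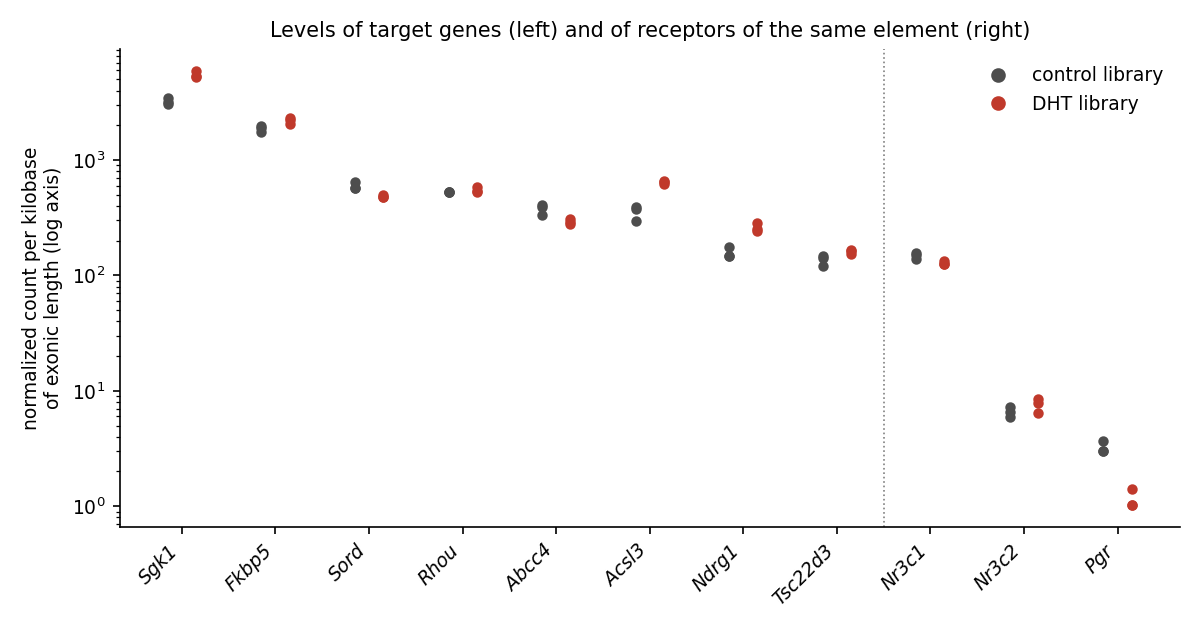
Normalized count per kilobase of exonic length (y axis, log scale) of the 8 genes, ordered by their control mean, and of 3 steroid receptors that share the response element (right of the dotted line); each point is a library. *Sgk1* and *Fkbp5* stand highest, *Nr3c1* lies near *Tsc22d3* in the control libraries (149.8 against 136) and below every target gene in the DHT libraries, and *Nr3c2* and *Pgr* lie far below.

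Of the receptors that bind this element, 3 are given here, and their levels differed widely. *Nr3c1*, the glucocorticoid receptor, had a mean of 149.8 normalized counts per kilobase in control libraries, while *Nr3c2*, the mineralocorticoid receptor, had 6.58 and *Pgr*, the progesterone receptor, 3.25. *Nr3c1* fell from 1151 ± 67.3 to 984 ± 30.1 (log2 fold change -0.22, adjusted p = 0.0371, limma), a call that was lost without the intensity trend (adjusted p = 0.1) and in 5 of the 6 fits without a library, all but that without control replicate 2 (adjusted p 0.0568 to 0.132). *Pgr* fell from 27.8 ± 3.33 to 9.83 ± 1.85 (log2 fold change -1.42, adjusted p = 0.00997). *Nr3c2* had a log2 fold change of 0.19 (adjusted p = 0.592).

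FKBP51 belongs to the HSP90 machinery that holds these receptors. Of its 15 chaperones and cochaperones 1 rose and none fell (6.67%, close to the 6.52% of all tested genes that were higher, with 11.2% changed in either direction). It was *Bag1*, a cochaperone of HSP70, with a log2 fold change of 0.21 (adjusted p = 0.0142, limma), a call lost without the intensity trend (0.0849). With quantile normalization 1 rose and 2 fell. Of the 15 receptor coregulators reported here, which are not all, 2 fell and none rose. This share of 13.3% was near the 11.2% of all tested genes that changed in either direction, of which 4.66% were lower. The 2 were *Nrip1*, which fell by 0.21 (adjusted p = 0.037, limma), and the GATA factor *Gata4*, by 0.21 (0.0265). Both calls were lost without the intensity trend (0.143 and 0.12), and those of *Nrip1* and *Gata4* were lost in 5 and 4 of the 6 fits without a library (adjusted p 0.0541 to 0.118 and 0.0591 to 0.097). None of the 14 relatives of *Fkbp5* tested passed.

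The wider androgen response of the prostate was taken in separate lists, sterol and fatty acid genes and the others. These lists, like that of glucocorticoid-responsive genes below, were chosen with earlier results of these data known. Their shares describe these data and are no independent test. All of the 11 sterol and fatty acid genes were tested, and 10 of them rose (90.9%, beside 6.52% of all tested genes). Their median log2 fold change was 0.67, beside -0.01 over all tested genes. The desaturase *Scd1* rose from 3953 ± 707 to 12554 ± 925 normalized counts (log2 fold change 1.68, adjusted p = 8.20e-05, limma), *Idi1*, an isomerase of the mevalonate pathway, by 1.04 (2.98e-05) and *Hmgcs1*, an early enzyme of that pathway, by 0.77 (2.98e-05). Of the 77 other prostate androgen-responsive genes tested, 14 rose (18.2%, beside 6.52% of all tested genes) and 4 fell (5.19%, close to the 4.66% of all tested genes), with a median log2 fold change of 0.05, which was 0.02 without control replicate 1. Without the intensity trend 8 rose and 1 fell, while over all tested genes 501 rose and 303 fell, against 1063 and 760 with it. The largest rises among these were those of *Pmepa1*, a feedback inhibitor of TGF-beta signalling, by 0.75 (0.000109), the linker histone *H1f0* by 0.54 (0.000402) and *Plpp1*, a lipid phosphatase, by 0.45 (0.0101). The largest falls were those of *Gucy1a1*, a subunit of the nitric oxide receptor, by -0.98 (adjusted p = 0.014), the cyclin *Ccnd1* by -0.71 (0.0393) and the scaffold *Akap12* by -0.40 (0.00046). The call was lost for *Plpp1* without DHT replicate 2 (adjusted p = 0.0573), for *Gucy1a1* without control replicate 2 (0.0516) and for *Ccnd1* in every fit without a library except that without control replicate 2 (0.0532 to 0.112); *Gucy1a1* and *Ccnd1* also lost it without the intensity trend (0.079 and 0.115). Without DHT replicate 2, 9 of the 77 genes rose, and over all tested genes 586 rose, against 1063 in the main fit.

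Of 28 glucocorticoid-responsive genes tested, 6 rose and 2 fell (28.6% changed, beside 11.2% of all tested genes), with a median log2 fold change of 0.12, which was 0.07 without control replicate 1. Without the intensity trend 3 rose and 2 fell, while over all tested genes 501 rose and 303 fell, against 1063 and 760 with it. *Glul*, glutamine synthetase, rose by 0.75 (adjusted p = 0.002, limma), the adhesion scaffold *Nedd9* by 0.58 (0.00046) and *Errfi1*, an inhibitor of the EGF receptor, by 0.48 (0.0199). *Angptl4*, an inhibitor of lipoprotein lipase, fell by 0.97 (2.98e-05), from 1672 ± 71.6 to 852 ± 30.7 normalized counts, and the corepressor *Tle3* by 0.36 (0.00108). *Errfi1* lost its call without the intensity trend (0.104) and in 4 of the 6 fits without a library (0.0547 to 0.0663). The number that rose was 4 without control replicate 2, 10 without control replicate 3, 3 without DHT replicate 2 and 4 without DHT replicate 3. Over all tested genes 828, 1237, 586 and 581 rose in these fits, against 1063 in the main fit.

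The relatives of each target gene are given beside the 11.2% of all tested genes that changed. Of the 4 other long-chain acyl-CoA synthetases, *Acsl4* rose from 5002 ± 284 to 7004 ± 266 normalized counts (log2 fold change 0.49, adjusted p = 0.000445, limma), while *Acsl1* (0.05, adjusted p = 0.671), *Acsl5* (0.09, 0.12) and the scarce *Acsl6* (0.70, 0.464) did not pass. None of *Ndrg2* (0.05), *Ndrg3* (-0.04) and *Ndrg4* (-0.07) passed (adjusted p 0.614 to 0.79). In the TSC22 family, *Tsc22d2* fell by 0.33 (adjusted p = 0.00903), a call lost without the intensity trend (0.077), and *Tsc22d1* (0.11, 0.215) and *Tsc22d4* (-0.13, 0.058) did not pass. Of 10 relatives and partners of SGK1, 2 changed, beside 11.2% of all tested genes, and 1 without the intensity trend: *Foxo3*, a FOXO factor, rose by 0.54 (0.000239) and *Foxo1* fell by 0.22 (0.0302), a call lost without the intensity trend (0.131) and in 5 of the 6 fits without a library, all but that without control replicate 3 (0.0648 to 0.107).

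Of the 5 other pumps of the family of *Abcc4* tested, 3 fell and 1 rose (beside 4.66% and 6.52% of all tested genes), and without the intensity trend 2 fell. *Abcc1*, another export pump, fell from 5017 ± 402 to 3705 ± 11.2 normalized counts (log2 fold change -0.43, adjusted p = 0.00149, limma), *Abcc3* by 0.44 (0.021) and *Abcc5* by 0.29 (0.00387), while *Abcc2*, at a low level, rose from 9.81 ± 2.06 to 36.2 ± 6.37 (1.79, adjusted p = 0.00355), and 1 did not pass. The fall of *Abcc3* was lost without the intensity trend (0.073) and without control replicate 1, DHT replicate 1 or DHT replicate 3 (0.0577 to 0.0882). In the polyol pathway of SORD, the aldo-keto reductase *Akr1b8* fell by 0.39 (0.00168). The aldose reductase *Akr1b3*, which makes sorbitol, had a log2 fold change of 0.02 (0.863), and *Akr1b10* (-0.11, 0.352) and the fructokinase *Khk* (0.28, 0.0722) did not pass either. Of 16 relatives of *Rhou* 3 changed (18.8%, beside 11.2% of all tested genes; 2 without the intensity trend): *Rnd2* (0.33, adjusted p = 0.00541) and *Rhog* (0.18, 0.0184) rose and *Rnd3* fell by 0.35 (0.00285), and *Rhog* lost its call without the intensity trend (0.0656) and in 3 of the 6 fits without a library (0.0515 to 0.0787). Of 12 relatives of *Zbtb16* 1 changed (8.33%, below the 11.2% of all tested genes): *Zbtb1* fell by 0.17 (0.0374), a call lost without the intensity trend (0.114) and in 5 of the 6 fits without a library (0.0902 to 0.125).

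**Figure D5:**
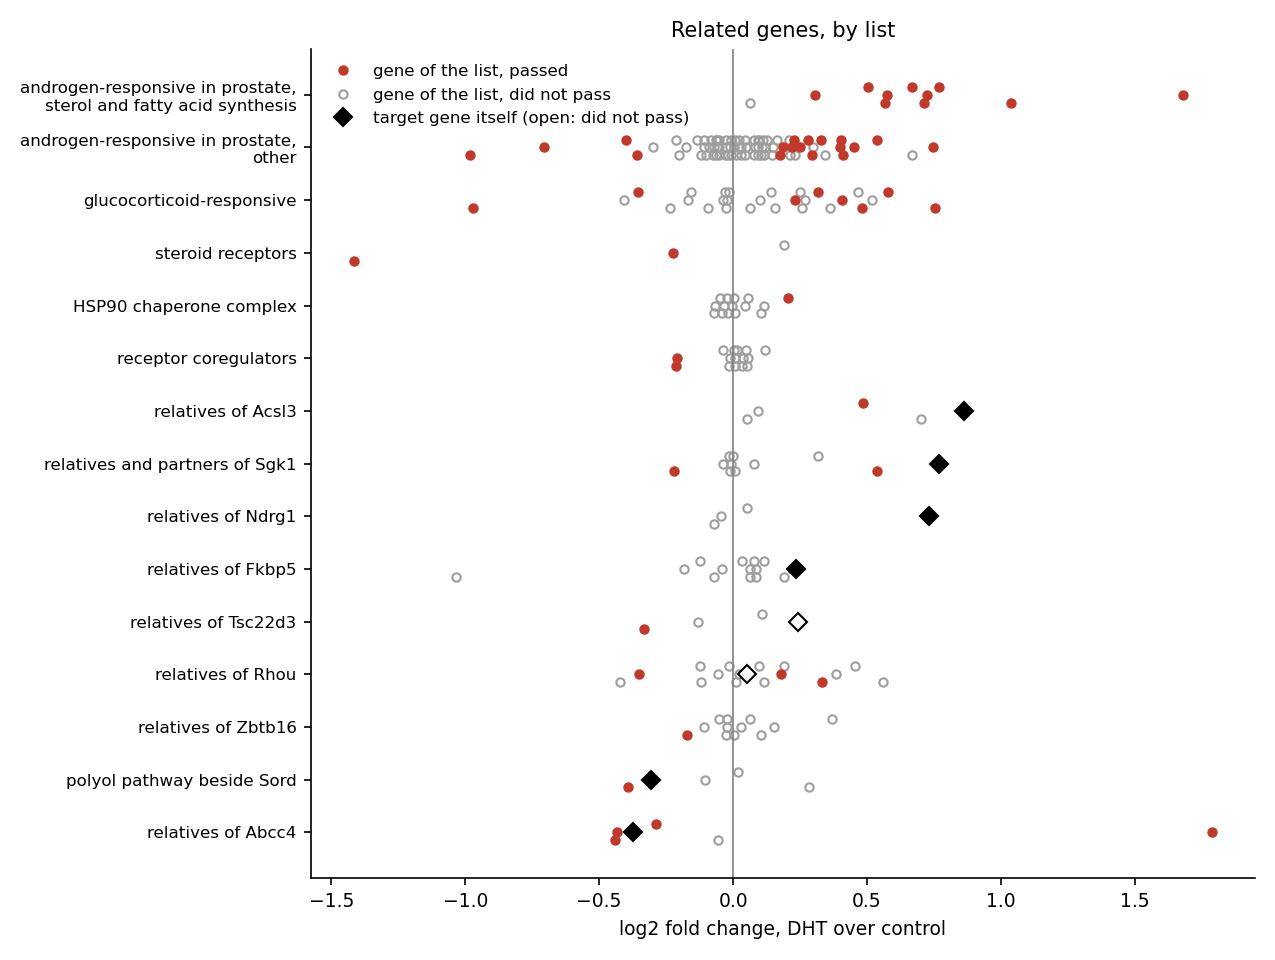
Log2 fold change (x axis, DHT over control) of every tested gene of each list, 1 list per line; red points passed an adjusted p of 0.05, open circles did not, and diamonds are the target genes themselves beside their relatives. Of 11 sterol and fatty acid genes 10 passed and lie above 0 (beside 6.52% of all tested genes), whereas the relatives of *Ndrg1* and *Fkbp5* hold no red point.

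*Fads2* and *Has2* were among the genes whose pattern over the 6 libraries was most like that of *Acsl3*, the gene with the largest change (Pearson r of log2 values 0.998 for both), of 12705 genes with a mean of at least 50 normalized counts. *Fads2*, a fatty acid desaturase, had 1549, 2231 and 2154 normalized counts in control and 4227, 4323 and 4195 in DHT libraries. *Has2*, the hyaluronan synthase, had 273, 569 and 492 against 2396, 1957 and 2008. In both, as in *Acsl3*, control replicate 1 was the lowest library, a likeness that choosing by r over these same libraries favours. The points are the same 6 libraries in 2 groups, so that any gene that rose strongly has a high r, and 924 genes had an r above 0.9.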

How the data were processed

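Normalized counts per gene, which are a signal made by the authors by dividing read counts by DESeq2 size factors, were taken from the deposited table for 3 control and 3 DHT libraries. Per the labels and the study's methods, paired reads were trimmed with Trimmomatic 0.36, aligned to GRCm38 with STAR 2.5.2b and counted over exons with featureCounts of Subread 1.5.2, unique reads only; the strand setting is not given in the sources used here. The deposited log2 fold change and p-value columns hold the authors' own comparison and were not used, nor was a second deposited table of 190 selected genes with the same kind of columns.

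Genes with a mean of at least 10 (16292) were tested in R 4.3.3 with limma 3.58.1, with an intensity trend, on log2(value + 1). The pseudocount lowers fold changes of scarce genes. Changed means a Benjamini-Hochberg adjusted p of at most 0.05 over all genes tested. With 3 against 3 libraries an exact permutation test of a single gene cannot give a p below 0.1, so none was run. The script was tested on simulated data. The values of every library were whole multiples of the value of 1 read within a tolerance of 0.1 read; read totals were recovered from these steps, and more reads per gene make a value more precise. Positions, exonic lengths and overlaps came from GENCODE annotation of GRCm38, promoters from RefSeq (GRCm38.p6); regions further from the starts were not searched.

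The genes and the 15 lists of related genes (234 genes, 7 of them in more than 1 list) and 6 marker lists were chosen with earlier results of these data known. Named were all target genes, every gene of lists of at most 5 genes, the 3 largest rises and falls that passed in longer lists, the most abundant gene of each marker list where a value turned on it, and, of the 3 genes most like the target gene with the largest change, those given here. Some genes that these rules would name are not reported here. Alternatives were the pseudocount, the filter, the scaling, the intensity trend, the replicate number as a block, and leaving out each library. The filter of at least 500 for a share of genes was chosen after seeing the data.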

Additional observations from a re-analysis of the deposited data

How the results depend on the processing

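Each of the 8 genes kept its direction in all 14 alternatives. *Acsl3*, *Sgk1*, *Ndrg1* and *Rhou* also kept their side of the threshold in all 14, with log2 fold changes of 0.74 to 0.93, 0.71 to 0.81, 0.66 to 0.81 and 0.01 to 0.08. Without the intensity trend in limma, 3 of the 8 genes changed, since *Fkbp5* (adjusted p = 0.124), *Abcc4* (0.0815) and *Sord* (0.0621) were lost, and 804 of all genes changed (501 higher and 303 lower). With a mean of at least 50, 131 genes were called, and with a pseudocount of 8, 159. With each library left out in turn, 931 to 2094 genes changed (581 to 1237 higher and 350 to 857 lower), 138 to 286 were called, and 5 to 7 of the 8 genes changed; the log2 fold changes ranged from -0.46 to -0.32 for *Abcc4* and from -0.33 to -0.25 for *Sord*. Among these fits the fewest genes were called without DHT replicate 3. The cause was not tested. No list gene that changed turned its direction in any alternative; quantile normalization and scaling by trimmed means gave 54.3% and 59.2% of changed genes higher, against 58.3%.

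The labels number the replicates 1 to 3 in both groups, but same-numbered libraries did not deviate together (correlations across genes of 0.01, 0.07 and -0.24, and control replicate 1 correlated best with DHT replicate 3, at 0.23), so the numbers were not taken to pair the libraries. With the replicate number as a block in limma, 990 genes changed (633 higher and 357 lower), 157 were called, and 5 of the 8 genes changed, *Fkbp5* being lost with an adjusted p of 0.0866. Under the block 11 of the 77 prostate genes rose and 2 fell, 4 of the 28 glucocorticoid-responsive genes rose and 2 fell, and none of the chaperones changed (*Bag1*, adjusted p = 0.0663). None of the coregulators and relatives of *Zbtb16* changed either, while 10 of the 11 sterol and fatty acid genes still rose. Among other genes that lost their calls were *Nr3c1* (adjusted p = 0.0977, limma), *Foxo1* (0.0539) and the leukocyte marker *Csf1r* (0.0654).

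The planned count-model tests on recovered reads were not run. The 8 genes were all above 500 normalized counts in every library. Groups of 3 are too small for a test of outlying libraries.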
